A study of Homo sapiens with 5 samples.

Results

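The major histocompatibility complex (MHC) lies on the short arm of chromosome 6. The hg19 build holds it on the primary chromosome and again on 7 alternate haplotype sequences. The binding of ZBTB7A, a BTB zinc finger factor, was profiled by ChIP-seq (sequencing of immunoprecipitated chromatin) in VCaP, an established line of androgen receptor-positive prostate cancer. Members were taken by position alone. They are the peaks on chromosome 6 with a summit between 28500000 and 33500000, and all peaks on alternate sequences of chromosome 6. There were 1477 such peaks among 196770 in all lists, 1199 on alternate sequences and 278 on the primary chromosome.

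Peaks were deposited as 1 list per condition. DHT cells received 10 nM of the androgen dihydrotestosterone for 4 hours, in 5% serum depleted of hormones (2 libraries). FBS cells were grown in 10% full serum (1 library). CSS cells received vehicle for 4 hours in the same depleted medium (2 libraries). All 5 libraries carry 1 treatment text in their labels, so that FBS had no added DHT was inferred from the named culture and the design text. The lists held 34120 peaks in DHT, 124868 in FBS and 37782 in CSS. With 1 list per condition there is no spread between replicates, and no p-value is given. Intervals are exact 95% intervals that cover counting error only, and the depth of the libraries is unknown. Peaks on different alternates can be copies of 1 place. Intervals for the alternates treat them as independent and are therefore too narrow. Each peak's fold enrichment and −log10 q are the authors' values, and they rank peaks within 1 list. They are not compared between lists.

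The MHC holds genes for antigen presentation, complement and cytokines. Class I molecules display peptides from inside the cell, class II molecules display peptides taken up from outside, and the TAP and proteasome genes supply class I with peptides. Its haplotypes differ between people in sequence and gene content, which is why the assembly carries several. The alternates are named apd, cox, dbb, mann, mcf, qbl and ssto, after the homozygous cell lines they came from. Nearly identical stretches recur on all of them, and a read from such a stretch fits several places. ZBTB7A binds C-rich DNA and is known as a repressor, among other loci of the fetal globin genes.

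A RefSeq gene table on another build, GRCh38, gives the order of the genes but no position that can be used here. By that order the complex opens with HLA-F and HLA-G of class I. HLA-E, HLA-C and HLA-B follow, then the class I relatives MICA and MICB. Next come the cytokine genes LTA, TNF and LTB and the complement genes C2, CFB and C4A. The class II genes HLA-DRA to HLA-DQB1, the peptide transporter genes TAP2 and TAP1, and HLA-DPB1 follow. From HLA-F to HLA-DPB1 the table lists 128 protein-coding genes. One BTB zinc finger gene, ZBTB12, lies between C2 and CFB, and ZBTB22 and ZBTB9 lie beyond class II near DAXX. Peaks below carry positions only, and none is assigned to a gene.

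The 2 lists from depleted serum held many MHC peaks, and the full serum list held few. On the alternate sequences there were 455 peaks in DHT, 203 in FBS and 541 in CSS. These were 1.33% (1.21 to 1.46%) of the DHT list, 0.163% (0.141 to 0.187%) of FBS and 1.43% (1.31 to 1.56%) of CSS. The primary window held 98 peaks in DHT, 69 in FBS and 111 in CSS. Its shares were 0.287% (0.233 to 0.350%) of DHT, 0.0553% (0.0430 to 0.0699%) of FBS and 0.294% (0.242 to 0.354%) of CSS. FBS was thus lowest in number on both kinds of sequence, although it was the longest list, at 3.30 times the length of CSS.

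Divided by the CSS share, the FBS share was 0.114 (0.0961 to 0.134) on the alternates and 0.188 (0.137 to 0.256) in the primary window. On chromosome 6 outside the window the same ratio was 0.994 (0.942 to 1.05), from 5756 FBS and 1752 CSS peaks. FBS against DHT gave 0.122 (0.103 to 0.144) on the alternates, 0.192 (0.139 to 0.264) in the primary window and 1.001 (0.947 to 1.06) outside it. The low share of FBS was therefore a difference between the MHC and the rest of the chromosome, with intervals far apart. DHT against CSS gave 0.931 (0.820 to 1.06) on the alternates, 0.978 (0.737 to 1.29) in the primary window and 0.993 (0.927 to 1.06) outside it. Each of the 3 intervals of DHT against CSS includes 1.

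Against the whole primary window, alternates outnumbered it more in depleted serum than in full serum, an order that depended on the window's edges. The ratio of alternate to primary peaks was 4.64 (3.72 to 5.84) in DHT, 2.94 (2.23 to 3.92) in FBS and 4.87 (3.97 to 6.03) in CSS. The FBS interval overlaps that of DHT. With 7 alternates to 1 primary sequence, each list held fewer peaks per alternate than on the primary window. This order of the lists turned when the primary window was narrowed to 30 to 33 Mb, at 7.71 in DHT, 13.5 in FBS and 8.20 in CSS.

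Cox carried the most peaks of the alternates in each list, with 80 in DHT, 54 in FBS and 93 in CSS. Apd carried the fewest, with 42 in DHT, 14 in FBS and 49 in CSS. Dbb had 65 peaks in DHT, 24 in FBS and 86 in CSS, and mann had 77 in DHT, 26 in FBS and 82 in CSS. Mcf had 51 in DHT, 28 in FBS and 74 in CSS. Qbl had 73 in DHT, 26 in FBS and 85 in CSS. Ssto had 67 in DHT, 31 in FBS and 72 in CSS. Counts of DHT were below those of CSS on all 7 alternates. The ratio of the counts ran from 0.689 on mcf to 0.939 on mann, and the whole lists had a ratio of 0.903. FBS counts were below CSS counts on each alternate, at 0.279 times on dbb to 0.581 times on cox.

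**Figure D1:**
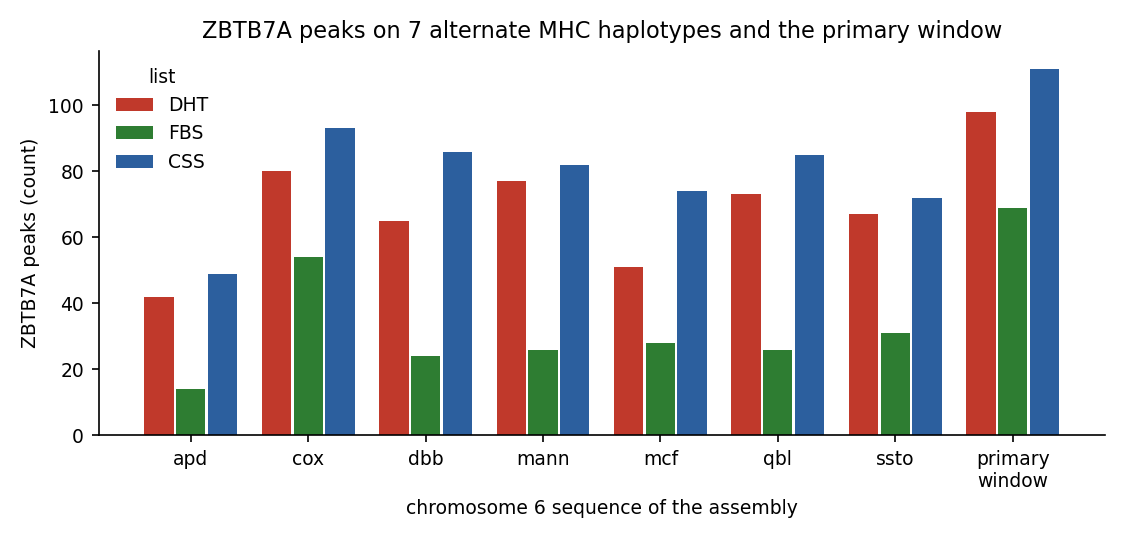
ZBTB7A peaks on each alternate haplotype sequence and in the primary window (x axis) as counts (y axis), with 1 bar per list. FBS is the lowest bar on every sequence, and cox is the richest alternate in each list.

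FBS peaks were sparse in the interior of the MHC and more frequent at its edges. The 10 windows of 0.5 Mb from 28500001 to 33500000 held 25, 0, 8, 2, 2, 1, 7, 0, 3 and 21 FBS peaks, in order along the chromosome. The same windows held 13, 3, 11, 11, 9, 9, 14, 10, 6 and 12 DHT peaks. In CSS they held 9, 6, 13, 14, 13, 6, 18, 7, 8 and 17 peaks. The adjoining window below held 71 FBS peaks and the one above held 40, so the fall was abrupt on both sides. In 8 of the 10 windows FBS had no more peaks than CSS. Over chromosomes 1 to 22 and X, 3360 windows held at least 5 CSS peaks, and FBS had no more peaks than CSS in 245 of them (7.29%). A window of this kind held a median of 27 FBS and 8 CSS peaks. The 2 MHC windows without any FBS peak were among 6 such windows over these chromosomes.

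**Figure D2:**
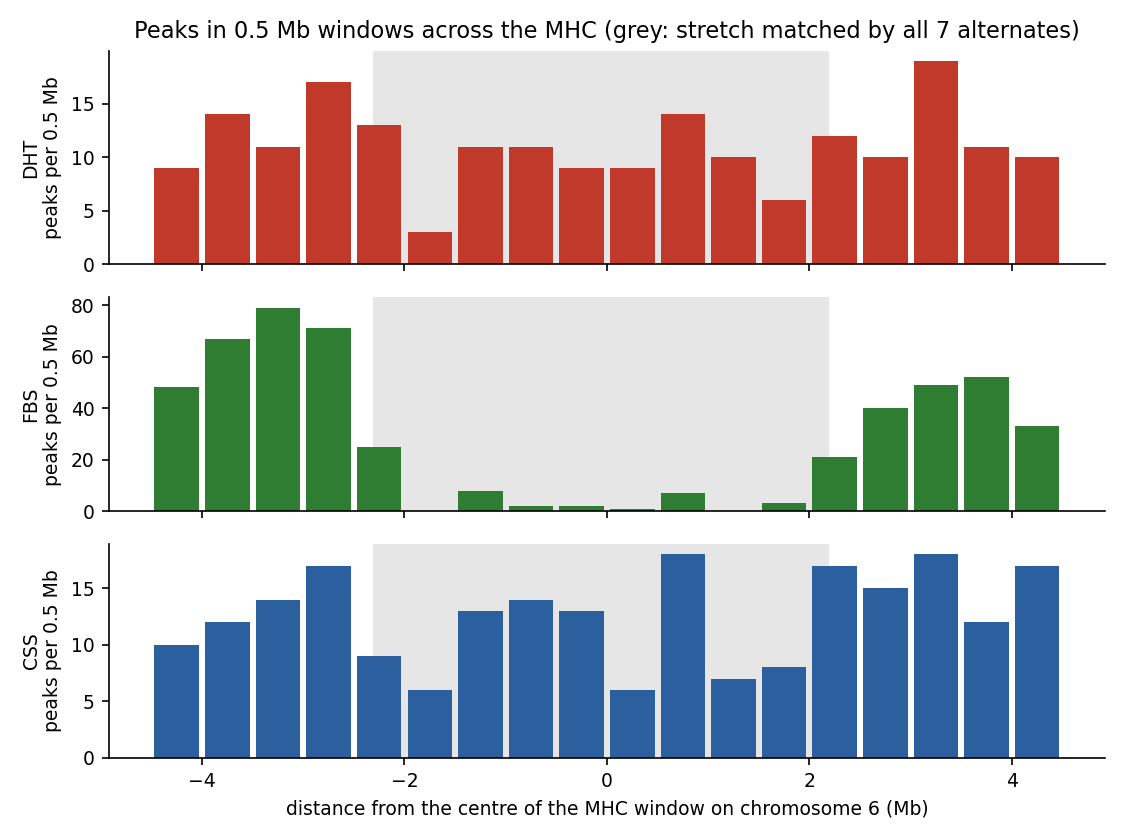
Peaks per 0.5 Mb window (y axes, 1 panel per list, from 0) against the distance from the centre of the MHC window on chromosome 6 in Mb. In the grey stretch, which all 7 alternates match, FBS windows lying wholly inside hold 0 to 8 peaks while DHT holds 3 to 14 and CSS 6 to 18.

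The longest stretch without an FBS summit ran from 31932750 to 32806976, 874227 bp, and held 18 DHT and 14 CSS summits. The next ran from 28940519 to 29583822, 643304 bp, with 6 DHT and 9 CSS summits. Another, from 30961430 to 31423624, held 9 DHT and 8 CSS summits. Each of these stretches that FBS left empty thus held peaks of both depleted-serum lists.

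To set the alternates beside the primary chromosome, summits were matched by shared spacing, since no alignment of the sequences was used. Where at least 3 places on an alternate lay at 1 common offset from chromosome 6 peaks of the same list, that offset placed the stretch. The 7 alternates were matched in 5 to 9 stretches each, by 36 summit pairs on apd to 96 on cox. Counting back from its first matched summits, cox opens at about 28477756 of chromosome 6. The other alternates open between 28659111 on ssto and 28696635 on apd and mann. The last matched summits lay between 33181185 on mann and 33422478 on ssto.

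The fall in FBS peaks began where most alternates open. In the 1 Mb below the start of cox there were 29 DHT, 152 FBS and 31 CSS peaks. From there to the start of ssto, where cox is the only alternate, density was 16.5 peaks per Mb in DHT (3.41 to 48.3), 110 in FBS (67.4 to 170) and 22.1 in CSS (6.01 to 56.5). In the 4.48 Mb that all alternates reach, density was 19.6 per Mb in DHT (15.7 to 24.2), 6.47 in FBS (4.33 to 9.29) and 21.6 in CSS (17.5 to 26.4). These came from 88 DHT, 29 FBS and 97 CSS peaks. Between the first and the last matched end it was 20.7 per Mb in DHT, 70.5 in FBS and 37.3 in CSS. In the 1 Mb above there were 27 DHT, 84 FBS and 32 CSS peaks. FBS was the densest list on both sides and the sparsest in the matched stretch, and its interval there lies below those of DHT and CSS. DHT and CSS were also less dense in this stretch than in the 1 Mb below it, but their intervals overlap. The assignment of reads that fit several sequences is unstated in the labels, and its part in these densities was not tested. The limits of the stretches were chosen after the counts had been seen.

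**Figure D3:**
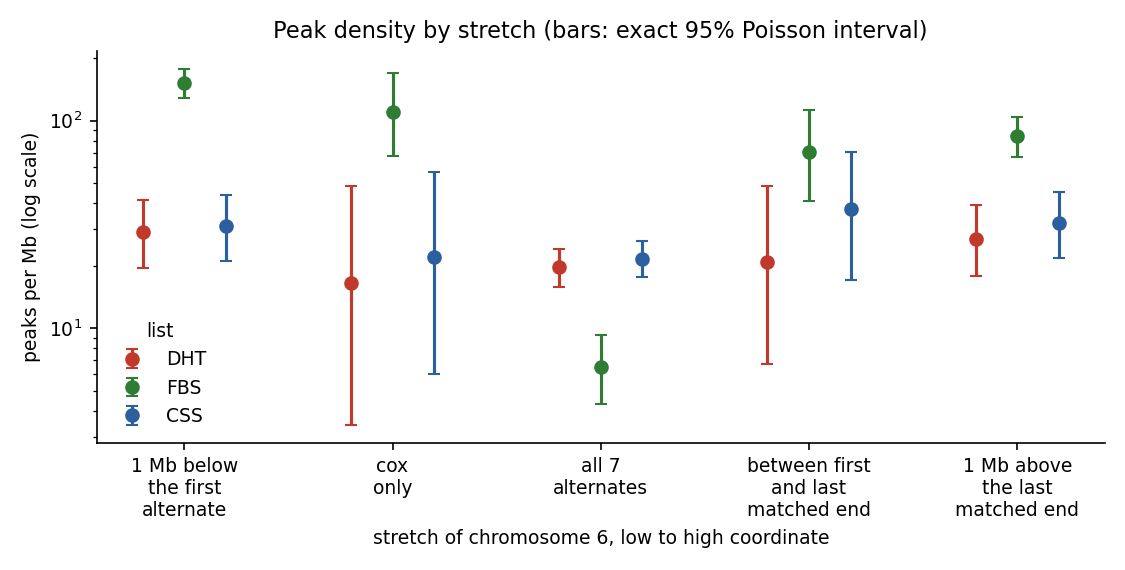
Peaks per Mb (y axis, log scale) in 5 stretches of chromosome 6 from low to high coordinate, with exact 95% Poisson intervals for each list. FBS lies above DHT and CSS in the outer stretches and below them, at 6.47 per Mb, in the stretch that all 7 alternates reach.

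In strength, MHC peaks of depleted serum resembled the rest of their lists, and no MHC peak of full serum was strong. A −log10 q of at least 10 was reached by 50 of 455 alternate peaks in DHT (10.99%, 8.27 to 14.2%) and by 10 of 98 primary peaks (10.204%, 5.00 to 17.97%). Over the whole DHT list 11.8% reached it. In FBS none of 203 alternate peaks (exact upper limit 1.80%) and none of 69 primary peaks (5.21%) did, while 4.92% of the whole FBS list did. That share is above the limit for the alternates and within the interval for the primary window. In CSS 75 of 541 alternate peaks (13.9%, 11.1 to 17.1%) and 19 of 111 primary peaks (17.1%, 10.6 to 25.4%) did, against 14.5% of the whole list. A fold enrichment of at least 5 was reached by 69.2% of alternate and 73.5% of primary peaks in DHT (71.5% of the list). In FBS 26.6% and 20.3% reached it (32.1% of the list), and in CSS 60.8% and 63.1% (63.2% of the list).

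The best FBS rank was 7920 of 124868 on the alternates and 15428 in the primary window. In DHT the best ranks were 98 of 34120 on the alternates and 66 in the primary window. In CSS they were 41 of 37782 on the alternates and 136 in the primary window. Median −log10 q on the alternates was 5.01 in DHT, 3.88 in FBS and 4.82 in CSS, beside 5.22 in the rest of DHT, 4.26 in the rest of FBS and 4.96 in the rest of CSS. In the primary window the medians were 4.89 in DHT, 4.22 in FBS and 4.96 in CSS. Primary peaks were a median of 245 bp wide in DHT, 251 bp in FBS and 263 bp in CSS, and 1 DHT, 0 FBS and 5 CSS peaks reached 1000 bp.

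The strongest primary peak in DHT lay from 33493058 to 33493494, with a fold enrichment of 14.4 and rank 66. FBS had no peak there, and the CSS partner had a fold enrichment of 13.2 and rank 335. This peak lies above the last matched summit of every alternate. Next in DHT was a peak from 31211853 to 31212661 (fold 10.4, rank 279), whose CSS partner from 31211710 to 31212611 was the strongest primary peak of CSS (fold 11.5, −log10 q 31.2, rank 136). The peak from 32562591 to 32563338 followed in DHT at fold 6.94 and rank 1754, with a CSS partner at fold 6.14 and rank 2576. None of these 3 had an FBS partner. The next CSS peak, from 31821545 to 31822260, had a DHT partner of fold enrichment 7.19 and rank 2269, and its own values were 10.18 and rank 213. The CSS peak from 31943526 to 31943950 had a DHT partner of 7.12 and rank 6099, and its own values were 12.7 and rank 315. Neither had an FBS partner on the primary chromosome. These leading primary peaks of depleted serum were thus called with and without DHT and had no overlapping FBS peak on the primary chromosome. The same did not hold for all peaks ranked below them. Primary regions with a peak in all lists held DHT peaks of rank 1877, 1978 and 2493 and CSS peaks of rank 492 and 1031. On the alternates, FBS had a peak at the place of the CSS peak from 31821545 on dbb. It had another at the place of the CSS peak from 31943526 on mcf.

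FBS led at other places. Its strongest primary peak, from 28554924 to 28555491 (fold 5.88, −log10 q 7.38, rank 15428), lay below the start of 6 of the 7 alternates and had no DHT or CSS partner. The peak from 33386119 to 33386765 (fold 4.88, rank 15786) overlapped a CSS peak of fold 3.86 and rank 37232. A peak from 33422311 to 33422706 (fold 5.18, rank 16117) had partners in DHT (fold 6.12, rank 14383) and CSS (fold 5.52, rank 21221). All 3 lay near the edges of the window, outside the stretch that all alternates reach.

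On the alternates, a DHT peak on qbl from 3854864 to 3855298 reached fold 14.5 and rank 109, and FBS had none there. Its CSS partner from 3854858 to 3855309, the strongest alternate peak of that list, had 18.9, a −log10 q of 43.0 and rank 41. On cox the DHT peak from 4068418 to 4068802 had 14.4 and rank 119, an overlapping FBS peak 4.36 and rank 87204, and the CSS peak from 4068397 to 4068875 16.9 and rank 90. Neither of these lay in a stretch that could be placed on the primary chromosome. The strongest alternate peak of DHT lay on apd from 3137141 to 3137732 (fold 11.6, rank 98), with a CSS partner of fold 8.41 and rank 1694. FBS had its strongest alternate peak on cox from 4683621 to 4683948 (fold 6.89, −log10 q 9.21, rank 7920), with no partner in DHT or CSS. That place was called in FBS on 5 sequences, cox, dbb, mcf, ssto and the primary. A pair of ssto peaks followed, from 4866354 to 4866725 (fold 5.46, rank 8361) and from 4865741 to 4866168 (fold 5.33, rank 8866), each also called in FBS on the primary.

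Peaks of depleted serum had partners in each other's lists at shares near those of the whole lists, counting an overlap of at least 1 bp. Of the DHT peaks, 296 of 455 on the alternates (65.1%, 60.5 to 69.4%) and 67 of 98 in the primary window (68.4%, 58.2 to 77.4%) overlapped a CSS peak, beside 63.9% of all DHT peaks. Of the CSS peaks, 277 of 541 on the alternates (51.2%, 46.9 to 55.5%) and 62 of 111 in the primary window (55.9%, 46.1 to 65.3%) overlapped a DHT peak, beside 56.8% of all CSS peaks. The interval for CSS on the alternates lies below that share, but it makes no allowance for copies of 1 place. Among DHT peaks reaching a −log10 q of 5, 86.4% on the alternates (81.3 to 90.6%) had a CSS partner, beside 79.96% of the rest. The same limit applies to this interval.

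Overlap of depleted-serum peaks with full serum was far lower in the MHC, where the FBS list also held few peaks. A partner share depends on how many peaks the partner list holds there. The shares below make no allowance for this in either direction. An FBS partner was present for 54 of 455 alternate DHT peaks (11.9%, 9.04 to 15.2%) and 17 of 98 primary DHT peaks (17.3%, 10.4 to 26.3%), beside 48.2% of all DHT peaks. For CSS it was present for 44 of 541 alternate peaks (8.13%, 5.97 to 10.8%) and 13 of 111 primary peaks (11.7%, 6.39 to 19.2%), beside 44.1% of all CSS peaks. In the other direction, a DHT partner was present for 53 of 203 alternate FBS peaks (26.1%, 20.2 to 32.7%) and 17 of 69 primary FBS peaks (24.6%, 15.1 to 36.5%), beside 13.3% of all FBS peaks. A CSS partner was present for 47 alternate FBS peaks (23.2%, 17.5 to 29.6%) and 14 primary FBS peaks (20.3%, 11.6 to 31.7%), beside 13.5% of all. The interval for primary FBS peaks with CSS includes the share of the list, and the other 3 lie above it. With equal numbers of top peaks from each list, 27.3% of primary FBS peaks had a DHT partner and 27.3% a CSS partner, beside 26.4% and 25.6% of the rest. When 50% of both peaks had to overlap, 1.45% of primary FBS peaks (0.0367 to 7.81%) had a CSS partner, an interval that includes the 6.30% of the rest. In the stretch that all alternates reach, 12 of 29 FBS peaks (41.4%, 23.5 to 61.1%) had a DHT partner, and in the rest of the primary window 5 of 40 (12.5%, 4.19 to 26.8%).

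After overlapping primary peaks were merged, 188 regions remained in the window. Of these, 10 (5.32%) held a peak in all lists, beside 7.67% of 151256 regions over the whole build. A further 49 (26.1%) were called in DHT and CSS, 6 (3.19%) in DHT and FBS and 3 (1.60%) in FBS and CSS, beside 5.97%, 2.61% and 2.69% of the regions of the build. Regions of 1 list numbered 25 in DHT (13.3%), 49 in FBS (26.1%) and 46 in CSS (24.5%), beside 5.10% in DHT, 68.4% in FBS and 7.57% in CSS over the build.

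Among the 10 regions of all lists, the one with the lowest sum of ranks lay from 29686251 to 29687642, with fold enrichments of 6.55 in DHT, 5.45 in FBS and 7.79 in CSS. The region from 29899948 to 29901011 had 9.01 in DHT, 5.23 in FBS and 10.1 in CSS. In the region from 31421998 to 31424190 the values were 7.46 in DHT, 5.23 in FBS and 5.30 in CSS. The region from 33421910 to 33422706 had 6.12 in DHT, 5.18 in FBS and 5.52 in CSS, and the one from 29863414 to 29864209 had 6.83 in DHT, 4.80 in FBS and 7.26 in CSS. Of these 5 regions, 3 lay between 29686251 and 29901011, on the low side of the complex.

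Places called on several sequences made up a larger share of the places in depleted serum than in full serum. Of the alternate peaks, 357 of 455 in DHT (78.5%), 153 of 203 in FBS (75.4%) and 412 of 541 in CSS (76.2%) could be placed in the primary window. Together with the primary peaks they marked 190 places in DHT, 157 in FBS and 192 in CSS, where summits within 100 bp counted as 1 place. A place was called on 2 or more of the 8 sequences for 92 DHT (48.4%), 44 FBS (28.0%) and 108 CSS places (56.3%). It was called on 4 or more for 46 DHT (24.2%), 5 FBS (3.18%) and 58 CSS places (30.2%). No FBS place was called on more than 5 sequences, while 3 DHT places and 1 CSS place were called on all 8. Places at the edges of the window are covered by fewer alternates, and these shares make no allowance for that. The stretch that all alternates reach held 29 of 69 primary FBS peaks, beside 88 of 98 in DHT and 97 of 111 in CSS. The matches also defined the offsets, so these shares describe the lists and are no independent check of the matching.

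**Figure D4:**
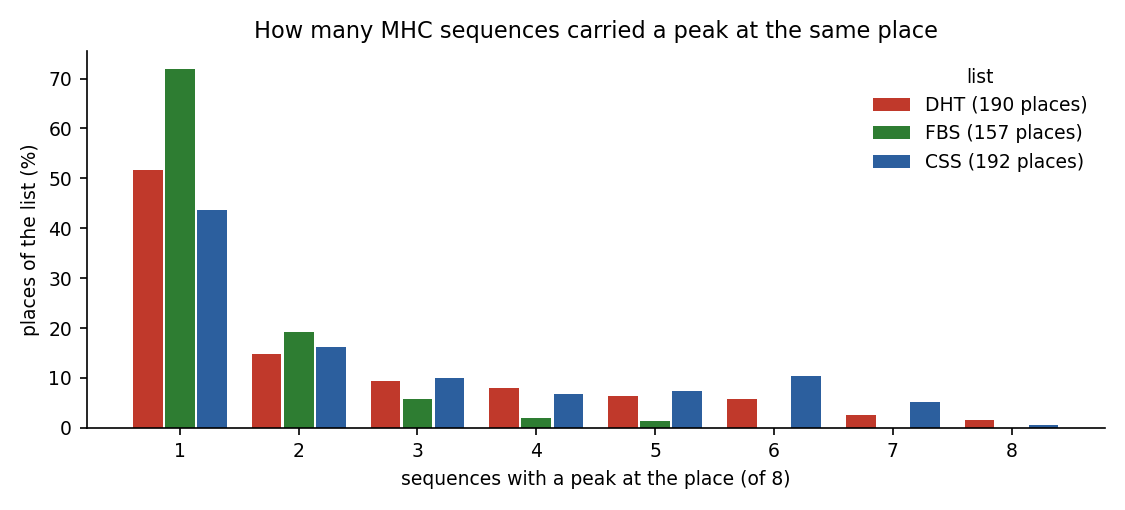
Share of each list's MHC places in percent (y axis) by the number of sequences, of 8, that carried a peak there (x axis). Places on 1 sequence are 51.6% in DHT, 72.0% in FBS and 43.8% in CSS, and FBS has none beyond 5 sequences. No allowance is made for how many sequences cover a place.

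A primary peak need not recur on every alternate that covers it. Matched stretches covered 90 of 98 primary DHT peaks, 67 of 69 FBS peaks and 106 of 111 CSS peaks. At least 1 copy was called for 70 of the covered DHT peaks (77.8%, 67.8 to 85.9%), 31 of the FBS peaks (46.3%, 34.0 to 58.9%) and 89 of the CSS peaks (84.0%, 75.6 to 90.4%). Taken over each combination of a primary peak and a covering alternate, a copy was called in 222 of 442 in DHT (50.2%), 48 of 224 in FBS (21.4%) and 295 of 534 in CSS (55.2%). For the strong primary peaks (−log10 q from 10 upward), copies were called in 72.4% of 29 such combinations in DHT and 64.9% of 77 in CSS. For the weaker primary peaks the shares were 48.7% of 413 combinations in DHT and 53.6% of 457 in CSS. Combinations that share a primary peak are not independent, and the 29 in DHT come from no more than 10 peaks. Counted by peak at a −log10 q of 5, uncovered peaks included, the order turned in DHT and CSS. A copy was called for 67.4% of 46 DHT peaks reaching it and 75% of 52 below it. In CSS the shares were 78.8% of 52 and 81.4% of 59, and in FBS 52.9% of 17 and 42.3% of 52. Intervals overlap within each list, so no link between strength and copies is drawn.

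Where both were called, copies had a median fold enrichment near that of their primary peak. Copies too weak to be called are left out of these ratios. The medians of all alternate and all primary peaks were also alike, at 5.65 and 5.57 in DHT, 4.36 and 4.36 in FBS and 5.55 and 5.58 in CSS. A median ratio near 1 therefore does not show that single copies match their primary peak. The ratio of alternate to primary fold enrichment had a median of 1.02 in DHT (quartiles 0.924 and 1.14, 222 pairs), 1.03 in FBS (0.942 and 1.21, 48 pairs) and 1 in CSS (0.896 and 1.13, 295 pairs). Single pairs ranged from 0.576 to 1.83 in DHT, 0.745 to 1.62 in FBS and 0.316 to 1.81 in CSS. At places called on at least 4 alternates, the highest alternate was a median of 1.33 times the lowest in DHT (36 places) and 1.35 times in CSS (46 places). Fold enrichment takes repeated values in weak peaks: 24 of 553 MHC peaks in DHT had 5.03, 37 of 272 in FBS had 4.36 and 67 of 652 in CSS had 4.78.

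Of DHT places on 4 or more sequences, 37 of 46 (80.4%, 66.1 to 90.6%) were called in CSS on at least 1 sequence. Of CSS places on 4 or more, 40 of 58 (69.0%, 55.5 to 80.5%) were called in DHT and 17 (29.3%, 18.1 to 42.7%) in FBS. A place covered by more sequences has more chances of such a match, so these shares are not set against those of places on 1 sequence. Of 406 places over all lists, 69 were called in DHT and CSS, 22 in all lists, 10 in DHT and FBS and 10 in FBS and CSS. The places of 1 list numbered 89 in DHT, 115 in FBS and 91 in CSS.

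The 5 places called on the most sequences each had a peak on all 8, counting every list. The first had summits from 31821670 to 31821991 of chromosome 6 after placement. DHT was called there on 8 sequences, at a fold enrichment of 5.63 on apd, a median of 7.48 and 8.76 on mann, and 7.19 on the primary. FBS was called on dbb alone, at 4.28. CSS was called on 7 sequences, at 8.11 on apd, a median of 9.43 and 10.18 on the primary, and not on ssto. DHT and CSS thus marked nearly every copy and FBS 1 of them.

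About 1 kb above it lay the second, with summits from 31822708 to 31822914. DHT was called on 7 sequences, at 4.42 on mann, a median of 6.89 and 11.6 on apd. FBS was called on 5 sequences, at 4.03 on mcf, a median of 4.29 and 5.19 on mann. CSS had a summit there on mann, at 4.64, and on the primary, at 5.601. Wide CSS peaks cover both places on some other sequences. On mcf a CSS peak from 3201237 to 3202778 overlaps 2 DHT peaks, from 3201264 to 3202058 and from 3202241 to 3202836. On cox the CSS peak of the first place, from 3331121 to 3331872, ends below the DHT peak from 3332105 to 3332655. On apd a separate CSS peak from 3137010 to 3137715 (fold 8.41, rank 1694) overlaps the DHT peak from 3137141 to 3137732. It is not counted here, since places were matched by summits. The count of CSS sequences at the second place thus depends on where peaks were joined and on the matching by summits.

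The third place, from 29600841 to 29600893, was called in DHT on 4 sequences, at 4.83 on mann, a median of 5.32 and 6.27 on ssto. FBS was called on none of the 8. CSS was called on 7 sequences, at 6.37 on cox, a median of 8.15 and 8.99 on the primary.

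At the fourth place, from 30155705 to 30155969, DHT was called on 8 sequences, at 4.93 on dbb, a median of 6.41 and 9.03 on cox. FBS was called on mcf, at 4.36. CSS was called on the 7 alternates, at 5.44 on dbb, a median of 6.13 and 7.77 on mcf, and not on the primary. The fifth place, from 31548719 to 31548799, was called on all 8 sequences in DHT, at 7.48 on apd, a median of 8.91 and 9.11 on mann and qbl. FBS was called on cox, at 4.36, and dbb, at 3.92. CSS was called on all 8, at 3.98 on the primary, a median of 5.58 and 7.10 on mcf.

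**Figure D5:**
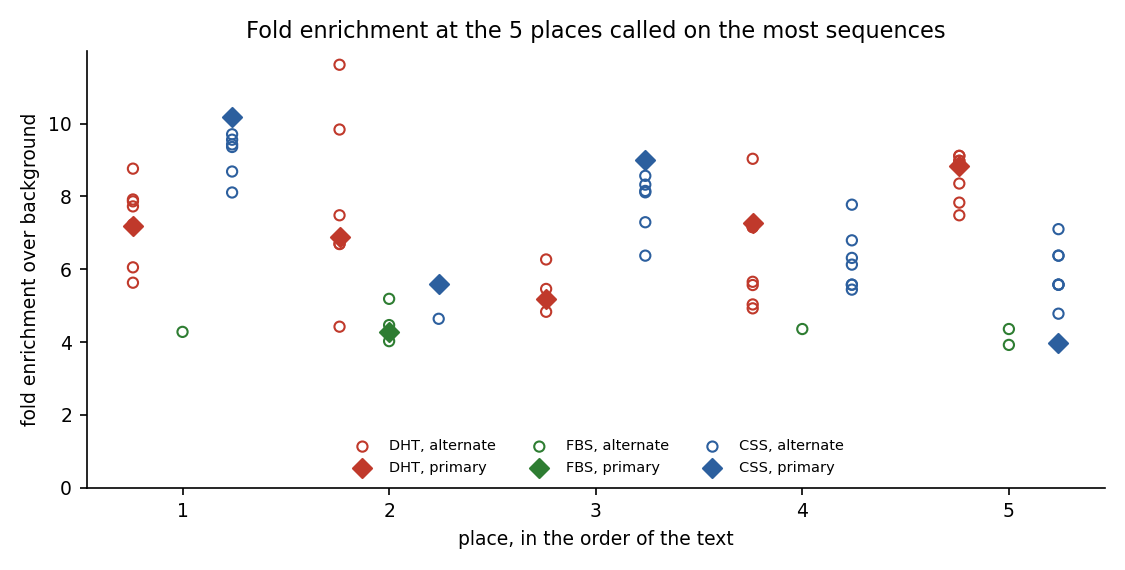
Fold enrichment over background (y axis, from 0) of each peak at the 5 places called on the most sequences (x axis), with filled diamonds for the primary sequence and open circles for alternates. At the fifth place the 8 DHT peaks sit between 7.48 and 9.11 and the 8 CSS peaks between 3.98 and 7.10, each on its own list's scale.

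Several primary peaks of 1 list had a peak of the other list at the same place on an alternate. Of 31 primary DHT peaks without a CSS partner, 6 (19.4%, 7.45 to 37.5%) lay at a place that CSS called on another sequence. Of 49 primary CSS peaks without a DHT partner, 11 (22.4%, 11.8 to 36.6%) lay at a place that DHT called. An FBS peak was present in this way for 9 of 81 primary DHT peaks (11.1%, 5.21 to 20.05%) and 15 of 98 primary CSS peaks (15.3%, 8.83 to 23.99%) without an FBS partner. Most primary peaks without an overlapping partner therefore had no summit of the other list at their place on the placed alternates either. Places were matched by summits within 100 bp, a stricter rule than the overlap used on the primary. Peaks that only overlap on an alternate are not counted here.

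The strongest primary peak called in DHT alone, from 30155717 to 30155982 (fold 7.27, rank 7892), is the fourth place above, where CSS had a peak on each of the 7 alternates. The next, from 30688685 to 30688882 (fold 5.99, rank 16075), was called in DHT on the primary and qbl, and the peak from 30655095 to 30655374 (fold 6.02, rank 16299) in DHT on 4 sequences. FBS and CSS had no summit at either place on any sequence, counting placed peaks with summits within 100 bp.

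The counts of sequences that follow are of placed peaks with summits within 100 bp, and leave out peaks that only overlap or were not placed. Among primary peaks of CSS alone, the peak from 30539055 to 30539295 (fold 6.70, rank 11954) had a CSS summit at its place on 7 sequences. DHT and FBS had none there. The peak from 32821781 to 32822062 (fold 6.52, rank 12798) had a CSS summit at its place on 6 sequences, and again none in DHT or FBS. The peak from 31628388 to 31628603 (fold 6.51, rank 12926) lay at a place that DHT called on 6 alternates and CSS on 7 sequences. A primary FBS peak without partners, from 33180985 to 33181415 (fold 5.88, rank 16813), was called in FBS on 4 sequences, and another, from 28589091 to 28589719 (fold 5.79, rank 17422), on the primary and cox.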

How the data were processed

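ThruPLEX libraries were made from VCaP chromatin precipitated with an antibody from R&D Systems, per the labels. The build hg19 and the tools MACS2 2.0.10.20131216, BWA 0.7.2-r351 and SAMtools 0.1.18 are named in the submitters' processing notes. Not given in the sources used here were the control library, the q-value threshold, filters on duplicate or multiply mapped reads, and how the 2 libraries of DHT and of CSS became 1 list. The authors deposited for each peak a fold enrichment (a ratio over background), a −log10 q value and a score derived from −log10 q. Depth is unknown.

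Coordinates are written with a first base of 1. Shares have exact Clopper-Pearson intervals, ratios exact conditional binomial intervals and densities exact Poisson intervals, at 95%. Summits on alternates were matched to chromosome 6 summits of the same list within 100 bp. An offset was used where at least 3 places more than 1000 bp apart shared it. The overlap and matching code was tested on simulated data. The software was scipy 1.17.1, pandas 2.3.3, numpy 2.4.6 and matplotlib 3.10.9 under Python 3.11.15.

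The members, lists and rules were chosen with earlier results of these data known. Named peaks are the 3 with the highest −log10 q per list on primary and alternate sequences, the 3 such primary peaks of 1 list only, the 5 leading regions of all lists and the 5 places on the most sequences. Merged windows, stretches, copies per covering alternate and FBS-free stretches were added after seeing the data. Planned counts at gene promoters and motif words needed an hg19 sequence and annotation and were not run, so no gene list has a result. The gene table (GRCh38) gave gene order alone.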

Additional observations from a re-analysis of the deposited data

How the results depend on the processing

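The direction of the FBS difference was kept under every alternative run: FBS had a lower MHC share than DHT and CSS on both kinds of sequence. Among peaks reaching a −log10 q of 5, the FBS share was 0.116% on the alternates and 0.0333% in the primary window, and the CSS share on the alternates 1.28%. With at least 10 the FBS shares were 0, and so were the ratios of FBS to CSS and to DHT and the FBS share of such alternate peaks relative to the rest. Among peaks reaching a fold of 5, FBS had 0.135% (alternates) and 0.0349% (primary). With equal numbers of top peaks it had 0.0850% and 0.0322%. With alternate copies counted once, the shares were 0.762% in DHT, 0.135% in FBS and 0.791% in CSS. From 30 to 33 Mb the primary shares were 0.173% in DHT, 0.0120% in FBS and 0.175% in CSS. Of peaks on chromosome 6 and its alternates they were 4.61% in DHT, 1.14% in FBS and 4.62% in CSS, and in the stretch all alternates reach FBS had 0.0232% of its list.

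The ratio of FBS to CSS shares in the primary window was 0.118 (−log10 q of at least 5), 0.119 (fold of at least 5), 0.116 (equal numbers), 0.0688 (30 to 33 Mb), 0.0905 (stretch of all alternates) and 0.126 (alternates added), but 0.248 (0.181 to 0.338) with chromosome 6 and its alternates as denominator. FBS to DHT gave 0.132, 0.118, 0.112, 0.0695, 0.0900, 0.134 and 0.248 under the same settings. On the alternates FBS to CSS gave 0.0905 (−log10 q of at least 5), 0.0617 (equal numbers) and 0.150 (chromosome 6 as denominator), and FBS to DHT 0.0923, 0.0637 and 0.157. Among peaks reaching a −log10 q of 10, DHT to CSS in the primary window was 0.715. The ratio of alternate to primary peaks was 7.71 in DHT, 13.5 in FBS and 8.20 in CSS from 30 to 33 Mb, and 3.95 in CSS with a −log10 q of at least 10. From 30 to 33 Mb the ratio was highest in FBS, and lowest under the other settings that gave an FBS ratio. That window is shorter while the alternates are kept whole, which raises the ratio of every list. Of the primary FBS peaks, 20 lay below and 20 above the stretch that all alternates reach, beside 3 and 7 in DHT and 3 and 11 in CSS.

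Partner shares moved with the overlap required, in the rest of each list as well. At 50% of both peaks and at summits within 100 bp, DHT with FBS gave 6.37% and 5.49% on the alternates and 6.12% under both in the primary window (rest 23.5% and 22.6%). CSS with FBS gave 5.55% and 3.88% on the alternates and 0.901% and 2.70% in the primary window (rest 21.1% and 20.02%). DHT with CSS gave 46.4% and 41.1% on the alternates and 51.02% and 39.8% in the primary window (rest 48.5% and 41.9%). CSS with DHT gave 39.002% and 34.6%, and 45.05% and 35.1% (rest 43.9% and 37.8%). FBS with DHT gave 14.3% and 12.3%, and 8.70% under both (rest 6.32% and 6.09%). FBS with CSS gave 14.8% and 10.3% on the alternates, above the rest at 6.30% and 5.96%, and 1.45% (0.0367 to 7.81%) and 4.35% (0.906 to 12.2%) in the primary window, with intervals that include it. With equal numbers of top peaks, DHT with FBS was 2.42% (alternates) and 2.04% (primary; rest 28.02%), and CSS with FBS 1.70% and 2.11% (rest 27.2%). On the alternates FBS with DHT was then 41.4% (23.5 to 61.1%; rest 26.4%), FBS with CSS 31.03% (15.3 to 50.8%; rest 25.6%) and CSS with DHT 55.7% (51.1 to 60.3%; rest 60.8%). With a −log10 q of at least 5, DHT with CSS was 86.4% (alternates) and 89.1% (primary; rest 79.96%), CSS with DHT 78.3% and 76.9% (rest 78.96%), and FBS with CSS 35.3% (primary, 14.2 to 61.7%; rest 20.9%). In the stretch all alternates reach, primary FBS peaks had a DHT partner in 41.4% and a CSS partner in 37.9%.

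Places on 2 or more sequences made up 32.3% in DHT, 13.9% in FBS and 34.02% in CSS with summits within 20 bp, and 58.3%, 36.6% and 64.7% in the same lists when placed peaks only had to overlap. CSS had 48.3% with a −log10 q of at least 5. FBS was lowest in each of these. The stretch that all alternates reach and the overlap of placed peaks were chosen after seeing the data. The causes of these shifts were not tested. No paired analysis was possible because each condition has 1 list, which also leaves no library to omit. Alternatives for promoters and motif words were not run. Depth limits what 1 list can show, and an absent peak is not absent binding.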

Other observations

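Other alternate sequences of the assembly behaved differently from one another. The alternate of chromosome 17 held 36 DHT, 53 FBS and 35 CSS peaks, and its FBS share was 0.458 (0.293 to 0.724) times its CSS share. The alternate of chromosome 4 held 3 DHT, 24 FBS and 3 CSS peaks, a ratio of 2.42 (0.735 to 12.6). Of the alternate MHC peaks that could not be placed on the primary chromosome, 22 of 98 in DHT, 9 of 49 in FBS and 40 of 127 in CSS had a match in their own list on another alternate, when placed through cox.

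Windows in which FBS had no more peaks than CSS occurred outside the MHC as well. There were 237 of them, 42 on chromosome X and 23 on chromosome 6. A window on chromosome 13 from 57500001 to 58000000 held 10 DHT, 2 FBS and 14 CSS peaks, and one on chromosome 1 from 215000001 to 215500000 held 2 DHT, 0 FBS and 6 CSS peaks. Both were chosen after their values were seen.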
